A study of Mus musculus with 6 samples.

Results

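Cytochrome P450 enzymes are heme proteins of the endoplasmic reticulum that use oxygen and electrons from P450 reductase to hydroxylate small lipophilic molecules. In liver, families Cyp1, Cyp2 and Cyp3 clear drugs, pollutants, steroids and fatty acids, and members of Cyp7 and Cyp8 make bile acids from cholesterol. Their transcription in hepatocytes depends on nuclear receptors, among them the xenobiotic sensors Pxr and Car and the liver factor Hnf4a, and their RNA is known to be lowered by inflammatory cytokines. Hepatocytes around the central vein carry most of it, and a few members, Cyp2f2 among them, mark the portal side.

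The genes described here were the 51 of 24167 in the deposited count table whose symbol has the form Cyp, then 1, 2, 3, 7 or 8, then a letter and a number. Symbols with a further letter and pseudogenes are outside this choice. There were 38 genes of family Cyp2, 7 of Cyp3, 3 of Cyp1, 2 of Cyp7 and 1 of Cyp8. The symbol alone decided the choice.

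RNA came from liver metastases of female BALB/c mice injected with shZdhhc17 4T1 cells (3 samples) or shSCR 4T1 cells (3 samples). The protocol gives n = 3 for each, and the labels do not say whether a sample is the metastases of 1 mouse. 4T1 is a mouse triple-negative breast cancer line, shZdhhc17 is a hairpin against the palmitoyltransferase gene Zdhhc17, and shSCR is a scrambled hairpin. Both lines carried the lentiviral pLKO.1 vector and were selected with puromycin, and the mice were 6 to 8 weeks old, received 500000 cells hydrodynamically through the tail vein and were killed on day 10. The hairpin was in the injected cells only, so the host's hepatocytes kept their own Zdhhc17, and only 1 hairpin label is given. Metastases were dissected under a microscope, and hepatocyte markers were abundant in all 6 libraries.

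The 6 libraries held 15832837 to 19186615 counts. Zdhhc17 itself was at 25.9, 27.8 and 26.0 CPM (counts scaled to the library size) in the shZdhhc17 metastases, against 33.7, 32.4 and 34.2 CPM in the shSCR metastases, without overlap (log2 fold change -0.33 ± 0.11 SE, adjusted p = 0.383 in edgeR's quasi-likelihood test). Here and below, values are in the order of replicates 1, 2 and 3 of each group, library sizes are scaled by trimmed mean of M values (TMM), and log2 fold changes are shZdhhc17 minus shSCR with their SE. The 12 hepatocyte markers of a list were serum proteins such as Alb, Trf and Apoa2. They summed to 59620, 79340 and 74310 CPM in shZdhhc17 metastases, against 63900, 50740 and 30210 CPM in shSCR metastases. This sum averaged 71100 ± 10200 CPM in shZdhhc17 metastases and 48300 ± 17000 CPM in shSCR metastases (SD, n = 3 each; exact two-sided permutation test p = 0.2, where 0.1 is the smallest p that 3 against 3 allows).

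Of the 51 P450 genes, 46 had enough counts to be tested, and 0 passed an adjusted p of 0.05. Of all 15567 genes tested, 0 passed as well (0%). At an unadjusted p under 0.05, 3 P450 genes were lower in shZdhhc17 metastases, Cyp2c40, Cyp2f2 and Cyp2c69, and 0 were higher. These 3 are 6.52% of the 46, and the background was 6.71% of all genes lower and 4.72% higher, so the share lower was near that of all genes. The estimate was positive for 26 P450 genes and negative for 20, with a median of 0.08, against 0.00 over all genes tested (0.00165). The CPM of the groups did not overlap for 2 of the 46 (4.35%), Cyp2c40 and Cyp2u1, both lower in shZdhhc17 metastases, against a background of 17.1% of all genes. In bulk tissue, fewer hepatocytes and less P450 RNA per hepatocyte cannot be told apart.

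**Figure D1:**
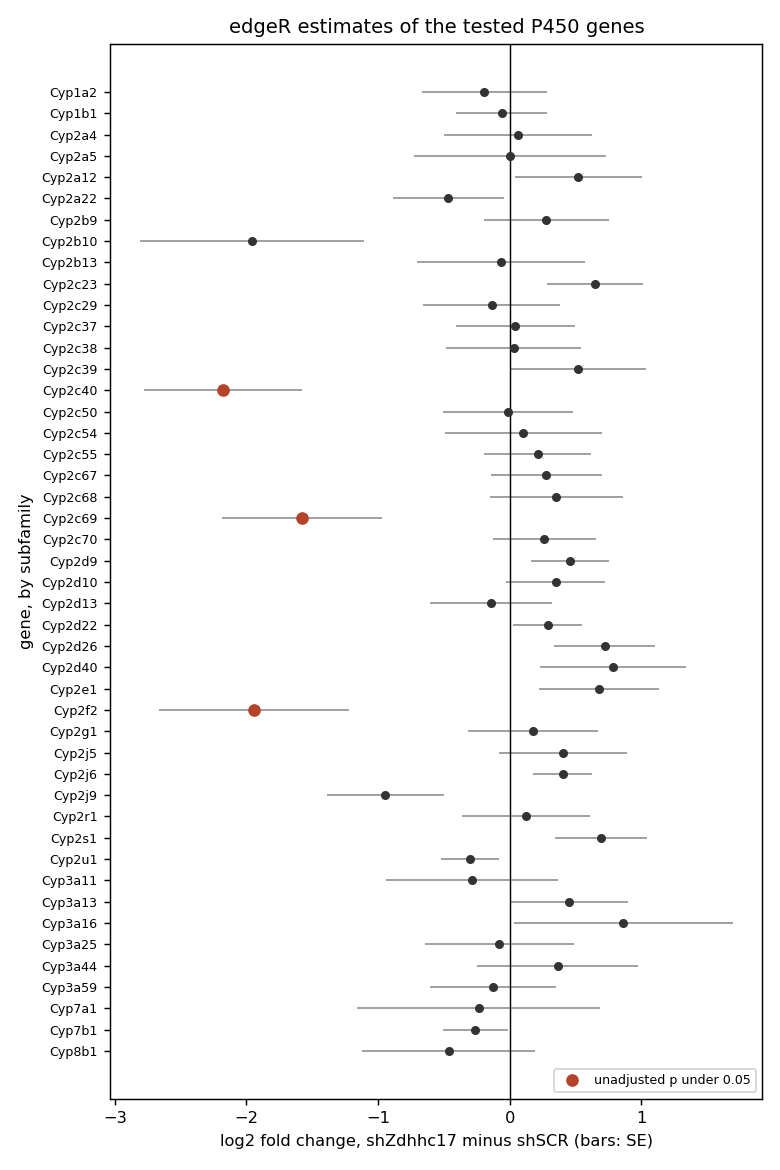
edgeR log2 fold changes (shZdhhc17 minus shSCR, x axis) with SE bars for the 46 tested P450 genes, in order of subfamily from top to bottom. The 3 red points, Cyp2c40, Cyp2c69 and Cyp2f2, have an unadjusted p under 0.05 and lie between -2.18 and -1.58, and apart from Cyp2b10 and Cyp2j9 the others lie between -0.47 and 0.87.

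The P450 gene with the smallest p was Cyp2c40, a female-predominant mouse Cyp2c gene whose enzyme oxidises arachidonic acid. It was at 1.32, 5.67 and 4.09 CPM in shZdhhc17 metastases, against 25.1, 18.1 and 6.92 CPM in shSCR metastases. All 3 shZdhhc17 libraries were below all 3 shSCR libraries, and the lowest shSCR library was replicate 3. The log2 fold change was -2.18 ± 0.60 (edgeR's quasi-likelihood test, adjusted p = 0.322). Its unadjusted p was under 0.05 in all 6 fits that left out 1 library, with log2 fold changes of -2.63 to -1.76.

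Cyp2c69, its close neighbour in sequence and also female-predominant, was at 1.32, 4.24 and 5.61 CPM in shZdhhc17 metastases, against 10.5, 18.2 and 4.69 CPM in shSCR metastases. The groups overlapped, because shZdhhc17 replicate 3 lay above shSCR replicate 3. Its log2 fold change was -1.58 ± 0.61 (edgeR's quasi-likelihood test, adjusted p = 0.408). The unadjusted p stayed under 0.05 without shZdhhc17 replicate 3 and without shSCR replicate 3, and did not without any of the other 4 libraries.

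Counts of these genes may be shared among copies. Of the 50-base stretches in Cyp2c40 transcripts, 60.3% also occur in another gene, and 36.7% occur in Cyp2c69. The shares found in another gene were 54.3% for Cyp2c69, 52.8% for Cyp2c67 and 43.3% for Cyp2c68. The sources used here do not say how reads that match several copies were counted, so the level of each single copy is uncertain. The close copies Cyp2c67 and Cyp2c68 had positive estimates. Cyp2c67 was at 30.3, 57.5 and 47.5 CPM in shZdhhc17 metastases, against 62.3, 29.1 and 20.1 CPM in shSCR metastases (0.28 ± 0.42). Cyp2c68 was at 20.3, 47.7 and 52.3 CPM in shZdhhc17 metastases, against 46.4, 35.1 and 12.5 CPM in shSCR metastases (0.35 ± 0.51). Both overlapped between the groups.

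The bases upstream of the annotated starts of these 4 genes are given because the copies differed in their estimates and share long stretches of upstream sequence. Each is 200 bases that end just before the start site, 5′ to 3′ on the gene's own strand, from RefSeq on GRCm38.p6, and capitals mark a match to the Hnf4 motif CAAAGTNCA. The positions are chr19:39812815-39813014 for Cyp2c40, chr19:39886770-39886969 for Cyp2c69, chr19:39741102-39741301 for Cyp2c68 and chr19:39649043-39649242 for Cyp2c67, all on the minus strand.
Cyp2c40: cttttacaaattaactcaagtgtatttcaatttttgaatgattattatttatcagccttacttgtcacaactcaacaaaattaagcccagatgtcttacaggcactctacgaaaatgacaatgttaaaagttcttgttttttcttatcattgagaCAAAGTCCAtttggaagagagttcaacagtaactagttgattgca
Cyp2c69: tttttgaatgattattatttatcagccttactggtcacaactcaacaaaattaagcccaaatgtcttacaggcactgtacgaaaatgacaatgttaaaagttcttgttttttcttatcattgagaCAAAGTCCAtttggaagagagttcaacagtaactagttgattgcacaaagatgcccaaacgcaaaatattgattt
Cyp2c68: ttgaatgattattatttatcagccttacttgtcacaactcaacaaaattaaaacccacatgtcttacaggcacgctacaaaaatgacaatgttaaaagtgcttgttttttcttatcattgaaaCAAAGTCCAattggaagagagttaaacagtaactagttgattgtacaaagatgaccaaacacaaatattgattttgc
Cyp2c67: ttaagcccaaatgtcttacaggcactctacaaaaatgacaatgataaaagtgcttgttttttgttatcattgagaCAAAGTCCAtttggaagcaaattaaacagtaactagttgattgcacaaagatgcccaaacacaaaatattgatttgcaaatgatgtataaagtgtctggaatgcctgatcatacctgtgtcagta

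All 4 hold the same match, CAAAGTCCA. It ends 36 bases before the annotated start of Cyp2c40, 66 before that of Cyp2c69, 68 before that of Cyp2c68 and 116 before that of Cyp2c67, so the annotated starts are offset against each other. Over aligned 250-base windows with gaps counted, Cyp2c40 and Cyp2c69 were 77.5% identical, with 3 mismatched bases and 60 gap positions. Cyp2c68 and Cyp2c69 were 91.3% identical, with 14 mismatched bases and 8 gap positions, and their estimates were 0.35 and -1.58. Cyp2c40 was 73.5% identical to Cyp2c68. By the same measure Cyp2c67 was 48.2% identical to Cyp2c40, with 160 gap positions, 62.3% to Cyp2c69 and 63.1% to Cyp2c68. The offset starts add gap positions, so these percentages reflect the offset as well as the bases. Among the 4 genes, Cyp2c40 and Cyp2c69 had the fewest mismatched bases, 3, and both had negative estimates. Cyp2c40 and Cyp2c68 had 9 mismatched bases and estimates of opposite sign. Cyp2c67 and Cyp2c68 had 14, and both had positive estimates. A link between upstream bases and estimates was not tested, and the copies may share reads, as given above.

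Among all members, 42 had an upstream sequence in the RefSeq table, with 44 sequences in all. The Hnf4 motif, searched on both strands of 250 bases, was in 12 of the 44 (27.3%), against 1.19% of all 32851 promoters of that length. It was found upstream of 7 Cyp2c genes, 3 Cyp3a genes, Cyp2d26 and Cyp8b1. The 7 include the 4 copies shown above with the same match, and the 44 count Cyp2c39 and Cyp3a25 more than once. Member sequences are therefore not independent of each other, for this motif and those below. TATAAA was in 50% of member sequences and 12.4% of all promoters, and the C/ebp motif TTGCNNAA in 27.3% of member sequences and 9.56% of all promoters. The dioxin response core GCGTG was in 11.4% of member sequences and 28.2% of all promoters. CCAAT was in 36.4% of member sequences and 33.8% of all promoters, and the Stat5 motif TTCNNNGAA in 0% of member sequences and 7.02% of all promoters. The background for these motifs is all promoters, not those of hepatocyte genes alone. A match describes letters only.

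Cyp2f2, the enzyme that activates naphthalene, is known from club cells of the airway and from periportal hepatocytes. It was at 19.7, 60.0 and 13.9 CPM in shZdhhc17 metastases, against 209, 114 and 37.7 CPM in shSCR metastases. Replicate 2 of shZdhhc17 lay above replicate 3 of shSCR, so the groups overlapped by this pair. The log2 fold change was -1.94 ± 0.72 (edgeR's quasi-likelihood test, adjusted p = 0.405), and 0% of its 50-base stretches occur in another gene. The unadjusted p stayed under 0.05 without shZdhhc17 replicate 2 and without shSCR replicate 3, and did not without any of the other 4 libraries, with log2 fold changes of -2.84 to -1.28.

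Of 12 lung epithelium markers listed, 7 were tested, 0 passed the adjusted threshold, 5 had positive and 2 negative estimates, and 1, Scgb1a1, was lower at an unadjusted p under 0.05. The club cell marker Scgb1a1 was at 0, 0 and 0.0659 CPM in shZdhhc17 metastases, against 19.3, 46.8 and 0.781 CPM in shSCR metastases. The whole list summed to 8.55, 119.6 and 7.98 CPM in shZdhhc17 metastases, against 24.75, 58.2 and 16.02 CPM in shSCR metastases. The alveolar marker Sftpc was at 0.0629, 60.4 and 2.04 CPM in shZdhhc17 metastases, against 0.164, 1.05 and 4.74 CPM in shSCR metastases. Both Scgb1a1 and Cyp2f2 had their highest levels in shSCR replicates 1 and 2. Replicate 2 was the higher of these for Scgb1a1 and replicate 1 for Cyp2f2. Cyp2f2 was at 13.9 to 60.0 CPM where Scgb1a1 was at or near 0. The part of airway RNA in the Cyp2f2 difference was not tested.

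The 200 bases before the start of Cyp2f2, at chr7:27119755-27119954 on the plus strand of GRCm38.p6 in RefSeq, are shown beside the Cyp2c sequences because they hold no match to the Hnf4 motif.
Cyp2f2: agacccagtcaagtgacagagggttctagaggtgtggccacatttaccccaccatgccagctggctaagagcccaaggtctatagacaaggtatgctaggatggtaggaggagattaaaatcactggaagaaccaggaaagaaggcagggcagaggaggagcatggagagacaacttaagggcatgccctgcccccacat

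Next by p among the lower members came Cyp2b10, the classical target of the receptor Car. It was at 2.64, 2.81 and 0.528 CPM in shZdhhc17 metastases, against 16.2, 5.49 and 1.73 CPM in shSCR metastases. The low shSCR replicate 3 made the groups overlap, and the log2 fold change was -1.96 ± 0.85 (edgeR's quasi-likelihood test, adjusted p = 0.44). Cyp2j9, of the arachidonic acid epoxygenase subfamily, was at 4.03, 3.40 and 2.18 CPM in shZdhhc17 metastases, against 10.2, 4.81 and 3.46 CPM in shSCR metastases (-0.94 ± 0.44). Cyp2u1, a fatty acid hydroxylase expressed widely outside liver, was at 3.21, 2.99 and 3.10 CPM in shZdhhc17 metastases, against 3.43, 3.82 and 4.19 CPM in shSCR metastases. Its groups did not overlap, with a small difference (-0.30 ± 0.22).

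**Figure D2:**
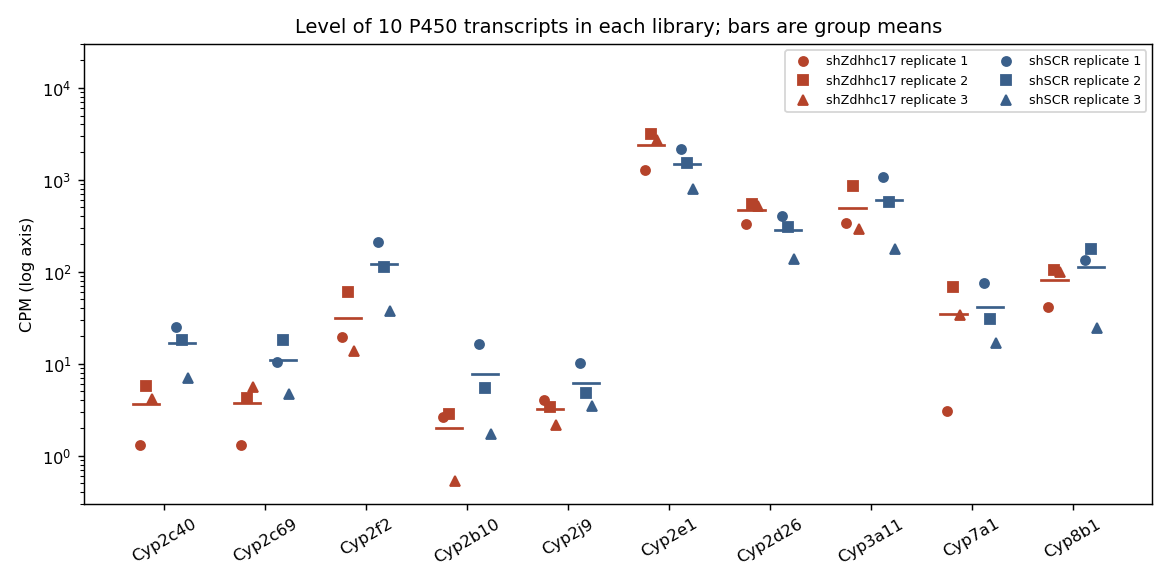
Level of 10 P450 transcripts in each library, in CPM on a log axis, with shZdhhc17 libraries in red on the left and shSCR libraries in blue on the right of each gene, symbols for replicates 1 to 3, and bars for group means. For Cyp2c40 all red points lie under all blue points, and for the other 9 genes the groups overlap.

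On the higher side, no P450 gene had an unadjusted p under 0.05 with all 6 libraries. The 6 with the smallest p were Cyp2s1, Cyp2d26, Cyp2j6, Cyp2c23, Cyp2d9 and Cyp2e1, and the groups overlapped for each. Cyp2s1, an epithelial P450, was at 2.64, 2.21 and 3.63 CPM in shZdhhc17 metastases, against 1.36, 2.46 and 1.40 CPM in shSCR metastases (0.69 ± 0.35). Cyp2d26, a liver Cyp2d gene, was at 334, 547 and 515 CPM in shZdhhc17 metastases, against 403, 305 and 139 CPM in shSCR metastases (0.72 ± 0.39). Only shZdhhc17 replicate 1 lay below a shSCR library. Cyp2j6 averaged 37.6 ± 5.84 CPM in shZdhhc17 metastases and 28.5 ± 7.78 CPM in shSCR metastases (SD, n = 3 each). Cyp2c23, an arachidonic acid epoxygenase, averaged 13.6 ± 5.72 CPM in shZdhhc17 metastases and 8.65 ± 2.82 CPM in shSCR metastases. The male-predominant steroid hydroxylase Cyp2d9 averaged 54.3 ± 10.6 CPM in shZdhhc17 metastases and 39.5 ± 17.0 CPM in shSCR metastases. Of the 6 tested Cyp2d genes, 5 had positive estimates, with a median of 0.40.

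Cyp2e1, which oxidises ethanol and acetaminophen, had the highest level of all members per length of exon, at a mean of 895 CPM per kb over the 6 libraries. It was followed by Cyp2d26 at 208, Cyp2c70 at 165 and Cyp2c39 at 161 CPM per kb, then by Cyp3a25 and Cyp2d10 at 118 each and Cyp3a11 at 108 CPM per kb. This order depends on the annotated exon length, 5093 bases for Cyp3a11 and 1792 for Cyp2d26. Without it Cyp3a11 was above Cyp2d26, at a mean of 551 against 374 CPM. Of the 50-base stretches, 35.8% for Cyp2d10 and 26.8% for Cyp3a25 also occur in another gene, so these levels are uncertain too. Cyp2e1 was at 1289, 3165 and 2677 CPM in shZdhhc17 metastases, against 2143, 1531 and 786 CPM in shSCR metastases (0.68 ± 0.46). The groups overlapped, with shZdhhc17 replicate 1 below 2 shSCR libraries. It made up 32.4, 36.0 and 38.5% of the P450 sum in shZdhhc17 metastases, against 26.7, 27.8 and 32.8% in shSCR metastases.

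Levels of the members tended to go together within a library. All 51 summed to 3979, 8786 and 6952 CPM in shZdhhc17 metastases, against 8026, 5501 and 2394 CPM in shSCR metastases. Of the 46 tested genes, 26 had their lowest level in shSCR replicate 3 and 13 in shZdhhc17 replicate 1, and 19 had their highest level in shSCR replicate 1 and 14 in shZdhhc17 replicate 2. The sums of the groups overlapped. Hepatocyte marker sums were also lowest in shSCR replicate 3 and, within its group, in shZdhhc17 replicate 1. Without shZdhhc17 replicate 1 and shSCR replicate 3, a choice made after seeing the data, the median of the 46 was 0.13 and 9 had an unadjusted p under 0.05. Of the 46, 5 were lower (10.9%) and 4 higher (8.70%), against 6.86% of all genes lower and 7.40% higher in the same fit. Cyp2c40, Cyp2c69, Cyp2b10, Cyp2j9 and Cyp8b1 were the lower ones, and Cyp2c23, Cyp2c39, Cyp2d26 and Cyp2e1 the higher ones. The median over members was 0.36 without shZdhhc17 replicate 1 and 0.50 without shSCR replicate 1. It turned negative without shZdhhc17 replicate 2, at -0.17, and without shSCR replicate 3, at -0.11. Calls on the higher side appeared without shSCR replicate 1, where Cyp2c67, Cyp2d26, Cyp2d9, Cyp2j5 and Cyp2j6 were higher at an unadjusted p under 0.05 and only Cyp2c40 was lower. Those 5 were 10.9% of the 46 members and the 1 lower gene 2.17%, against 7.12% of all genes higher and 11.1% lower in that fit. Higher calls also appeared without shZdhhc17 replicate 1 (Cyp2c23) and without shSCR replicate 2 (Cyp2s1). Without shSCR replicate 3, the 6 members at an unadjusted p under 0.05 were all lower. They were Cyp2b10, Cyp2c40, Cyp2c69, Cyp2f2, Cyp2j9 and Cyp8b1. These 6 were 13% of the 46 members, against 4.23% of all genes lower in that fit.

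**Figure D3:**
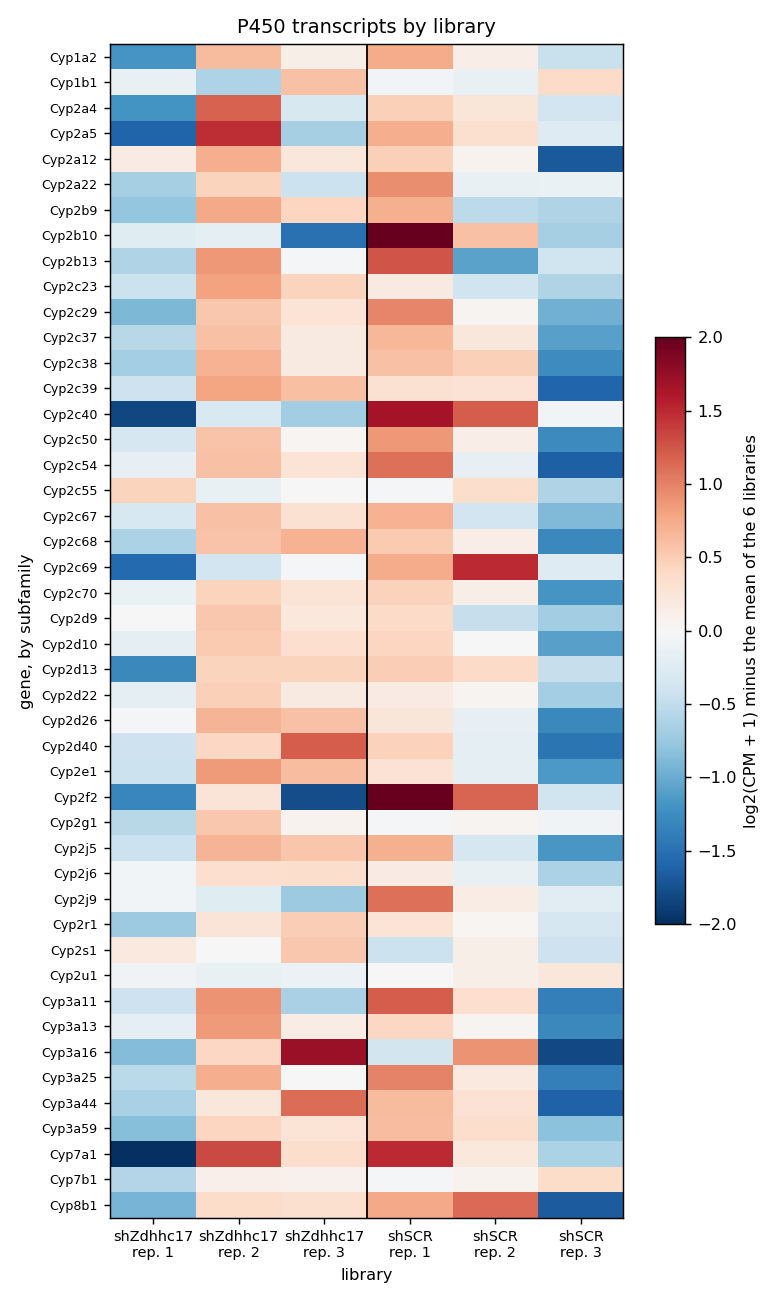
Level of each of the 46 tested P450 genes (rows, by subfamily) in each library (columns, shZdhhc17 left of the black line and shSCR right), as log2(CPM + 1) minus the gene's mean over the 6 libraries, with colours capped at -2 and 2. The columns of shSCR replicate 3 and shZdhhc17 replicate 1 are blue over most rows. Cyp2c40, Cyp2c69, Cyp2f2 and Cyp2b10 are among the rows that differ from their neighbours.

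By family, the median log2 fold change was 0.18 over 35 tested Cyp2 genes, 0.14 over 6 Cyp3 genes, -0.13 over 2 Cyp1 genes, -0.25 over 2 Cyp7 genes and -0.46 for the single Cyp8 gene. None of the 11 tested genes outside Cyp2 had an unadjusted p under 0.05. Cyp1a2, the caffeine oxidising target of the dioxin receptor Ahr, was at 17.9, 65.6 and 45.5 CPM in shZdhhc17 metastases, against 70.9, 46.1 and 30.5 CPM in shSCR metastases (-0.19 ± 0.47). Cyp1b1, an Ahr target found mainly in stromal and extrahepatic cells, was at 8.43, 5.79 and 14.7 CPM in shZdhhc17 metastases, against 9.10, 8.42 and 12.6 CPM in shSCR metastases (-0.06 ± 0.35). It did not follow the hepatocyte markers, being above its group's other libraries in shSCR replicate 3. Cyp1a1, the most inducible Ahr target, had 3, 2 and 2 reads in shZdhhc17 metastases, against 3, 5 and 1 reads in shSCR metastases, too few to test.

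Of 7 members known as targets of Car and Pxr, 3 had positive and 4 negative estimates, with a median of -0.01. Cyp3a11, the main mouse Pxr target, was at 343, 858 and 291 CPM in shZdhhc17 metastases, against 1061, 578 and 178 CPM in shSCR metastases (-0.28 ± 0.65). Cyp2c29 averaged 156 ± 69.4 CPM in shZdhhc17 metastases and 171 ± 108 CPM in shSCR metastases (-0.14 ± 0.52; SD, n = 3 each). Cyp3a13, expressed in gut as well as liver, averaged 49.2 ± 19.03 CPM in shZdhhc17 metastases and 35.9 ± 18.7 CPM in shSCR metastases (0.45 ± 0.45). The groups overlapped for each of these.

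The 8 pericentral members had a median of -0.01, and Cyp2f2, the 1 periportal member, was at -1.94. The groups overlapped for Cyp2f2, which is also known from airway cells, so with this 1 gene a zonal difference was not tested. The pericentral coumarin hydroxylase Cyp2a5 was at 9.87, 90.3 and 19.7 CPM in shZdhhc17 metastases, against 53.4, 40.2 and 26.5 CPM in shSCR metastases, and its estimate of 0.00 (-0.000301) rests on shZdhhc17 replicate 2. Without that library it was -1.44. Female-predominant members numbered 7 and had a median of 0.06, with Cyp2c40 and Cyp2c69 at the low end and Cyp3a16 at 0.87. Cyp2d22, often set beside human CYP2D enzymes, averaged 79.7 ± 18.4 CPM in shZdhhc17 metastases and 65.2 ± 19.2 CPM in shSCR metastases (SD, n = 3 each).

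None of the 5 bile acid members had an unadjusted p under 0.05, and their median was -0.24. Cyp7a1, the rate-limiting enzyme of the classical pathway, was at 3.08, 67.9 and 34.2 CPM in shZdhhc17 metastases, against 76.1, 31.0 and 16.8 CPM in shSCR metastases (-0.24 ± 0.93). Replicate 1 of shZdhhc17 was the lowest of the 6 libraries, and the groups overlapped. Cyp8b1, which directs synthesis to cholic acid, was at 41.4, 103 and 99.0 CPM in shZdhhc17 metastases, against 136, 176 and 24.5 CPM in shSCR metastases (-0.46 ± 0.65). Without shSCR replicate 3 its log2 fold change was the lowest of its 6 such fits, -0.94. Cyp7b1, of the oxysterol pathway, was at 7.36, 12.6 and 12.4 CPM in shZdhhc17 metastases, against 11.3, 12.3 and 15.2 CPM in shSCR metastases (-0.26 ± 0.24). Cyp2c70, which makes muricholic acids in mice, averaged 357 ± 71.1 CPM in shZdhhc17 metastases and 297 ± 147 CPM in shSCR metastases (0.26 ± 0.39; SD, n = 3 each).

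The groups also overlapped for Cyp2c39 and Cyp2r1. Cyp2c39, a retinoic acid hydroxylase, averaged 345 ± 133 CPM in shZdhhc17 metastases and 241 ± 135 CPM in shSCR metastases (0.52 ± 0.52; SD, n = 3 each). Cyp2r1, which hydroxylates vitamin D in the liver, averaged 2.46 ± 1.36 CPM in shZdhhc17 metastases and 2.25 ± 0.665 CPM in shSCR metastases (0.12 ± 0.48). Besides Cyp1a1, the genes Cyp2d11, Cyp2d12, Cyp2j8 and Cyp3a57 had too few reads to test, with at most 9 in a library.

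Around these enzymes, other lists of hepatocyte genes had higher medians. The hepatocyte markers had a median log2 fold change of 0.52, with 11 of 12 positive. Their estimates were not uniform and ran from -0.09 for Apoa2 to 0.90 for Trf, with Alb at 0.37. Of these 12, 1 was higher at an unadjusted p under 0.05 (8.33%, against 4.72% of all genes higher). Of 17 xenobiotic and hepatic transcription factors tested, 15 were positive, with a median of 0.47. At an unadjusted p under 0.05, 5 were higher (29.4%) and 0 lower, against 4.72% of all genes higher and 6.71% lower. Nr1i2, which encodes Pxr, was at 36.7, 42.0 and 35.9 CPM in shZdhhc17 metastases, against 23.9, 21.8 and 12.6 CPM in shSCR metastases, without overlap (0.97 ± 0.24; edgeR's quasi-likelihood test, adjusted p = 0.307). Its target Cyp3a11 overlapped between the groups, as given above. Foxa2 (0.66 ± 0.22) and Rxra (0.66 ± 0.26) were the next 2 by p, and none of these passed the adjusted threshold.

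Of 14 genes that supply electrons and heme to P450 enzymes, 10 were positive, with a median of 0.21. Of the heme synthesis genes, Alad (0.83 ± 0.22) was higher and Ppox (-0.51 ± 0.13) lower at an unadjusted p under 0.05, and neither passed the adjusted threshold. At that p, 2 of the 14 genes were higher and 1 lower, against 4.72% of all genes higher and 6.71% lower. Other bile acid enzymes had a median of 0.38 over 13 genes. Acox2 (1.02 ± 0.33) and Cyp39a1 (0.51 ± 0.22) were higher and the cholesterol hydroxylase Ch25h (-1.29 ± 0.49) lower at an unadjusted p under 0.05. Those were 2 higher and 1 lower of the 13, against the same shares of all genes. P450 genes of other families had a median of 0.12 over 17 tested, with Cyp24a1, the vitamin D catabolic enzyme, at 0.96 ± 0.40 and Cyp4a14, a fatty acid hydroxylase, at 1.41 ± 0.85.

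The acute phase list had a median of 0.98 and all 12 genes positive. At an unadjusted p under 0.05, 6 were higher (50.0%, against 4.72% of all genes higher). Saa3 was at 51.7, 40.9 and 72.2 CPM in shZdhhc17 metastases, against 11.0, 17.3 and 11.4 CPM in shSCR metastases. Neutrophil markers had a median of 1.99, with 8 of 10 higher at an unadjusted p under 0.05 (80.0%, against the same 4.72%). Macrophage markers had a median of 0.64. Sinusoidal endothelium markers had a median of 0.28, stellate cell and fibroblast markers -0.26, and carcinoma and bile duct markers -0.43. Calls at that p went both ways among the stellate and fibroblast genes, with 4 of 10 lower and 2 higher. Of the 8 carcinoma and bile duct genes, 2 were lower and 0 higher, where the background was 6.71% of all genes lower and 4.72% higher. Among macrophage genes 1 of 8 was higher, and among endothelium genes 0 of 8 were called. The part of these cells and of the acute phase in the P450 levels was not tested.

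**Figure D4:**
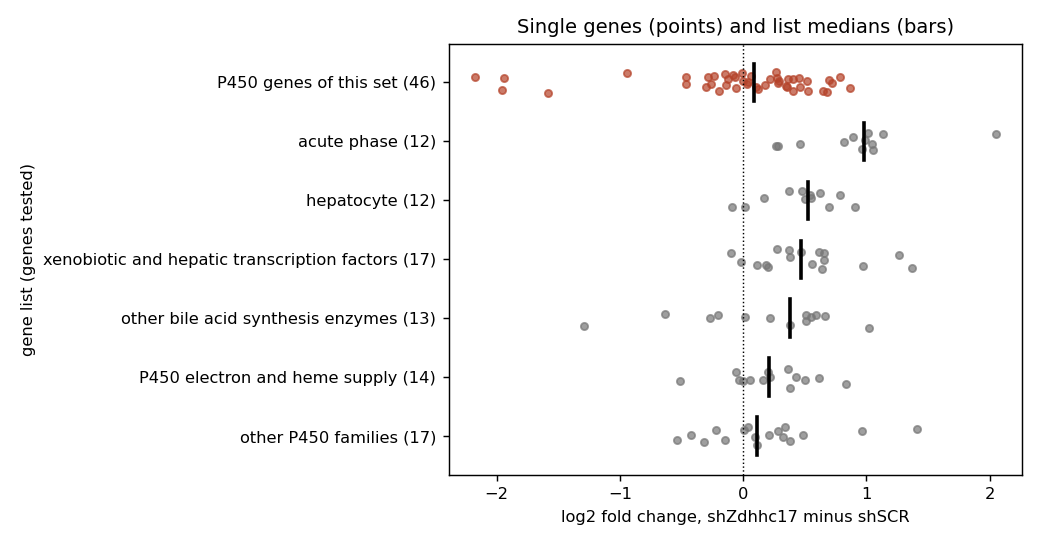
log2 fold changes (shZdhhc17 minus shSCR, x axis) of single tested genes (points) and list medians (black bars) for the P450 genes in red and 6 related lists in grey. The P450 median of 0.08 lies below the medians of 0.52 for hepatocyte markers and 0.98 for acute phase genes, and 4 P450 genes lie at -1.58 or lower.

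Set against the hepatocyte markers, the P450 sum was 6.67, 11.1 and 9.36% of the marker sum in shZdhhc17 metastases, against 12.6, 10.8 and 7.92% in shSCR metastases, with overlap. Per 10000 CPM of hepatocyte markers, a scale added after seeing the data, 14627 of all 15567 genes were lower in shZdhhc17 metastases, with a median log2 ratio of -0.68 (-0.675), and 38 of the 46 members were lower, with a median of -0.48. On that scale Cyp2c40 was at 0.222, 0.715 and 0.55 in shZdhhc17 metastases, against 3.93, 3.58 and 2.29 in shSCR metastases. On the same scale Cyp2f2 was at 3.3, 7.57 and 1.87 in shZdhhc17 metastases, against 32.7, 22.4 and 12.5 in shSCR metastases. Both, and Cyp2c69 too, were without overlap, and the exact two-sided permutation test gave each the smallest possible p, 0.1. On the CPM scale Cyp2f2 and Cyp2c69 overlapped, and their log2 ratios per hepatocyte marker, -2.41 and -2.17, include the shift common to all genes. Cyp2e1 was at 216, 399 and 360 in shZdhhc17 metastases, against 335, 302 and 260 in shSCR metastases, with overlap. On this scale 10 of 46 members (21.7%) were lower without overlap, against 24.0% of all genes, so their share was near the background.

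A fit with the hepatocyte marker level of each library as a covariate gave another count. In it 17 of 46 members (37.0%) were lower at an unadjusted p under 0.05 and 0 were higher, against a background of 4.55% of all genes lower. The median over members was -0.58, against 0.01 over all genes, and the lowest adjusted p was 0.0737, for Cyp2c40 (-3.18). The 17 were 8 Cyp2c genes, 3 Cyp3a genes, Cyp2a22, Cyp2b10, Cyp2f2, Cyp2j9, Cyp1a2 and Cyp8b1. Cyp2f2 was at -2.87, Cyp8b1 at -1.65, Cyp3a11 at -1.16 and Cyp2c29 at -1.06 on this log2 scale, while Cyp2e1 was at -0.10 and Cyp2d26 at 0.07. This fit has 3 residual degrees of freedom, and none of these passed the adjusted threshold. The covariate, the mean log2(CPM + 1) of the markers, was itself 0.513 higher in shZdhhc17 metastases, so it is partly confounded with the group. Members tended to go together within a library, so the 17 are not separate results. The background here is all genes, not hepatocyte genes alone.

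In the authors' deposited table, Cyp2c40 was the 1 member with q under 0.05, at a log2 fold change of -2.17, p = 5.1e-05 and q = 0.0105, where 0.844% of the 24167 genes had such a q. DESeq2 run here called it at the same adjusted p of 0.0105, and edgeR did not. Per the authors' deposited table, p was under 0.05 for 5 members, namely Cyp2c40, Cyp2c69, Cyp2f2 and Cyp2j9, which were lower, and Cyp2d26, which was higher. By the authors' deposited table these were 9.80% of the members, against 8.21% of all genes, so the share was near the background. Of the 8 gene sets with P450 in their name in the authors' deposited table, 0 had q under 0.05, and their lowest q was 0.442. The set for xenobiotic metabolism of the hallmark collection had a normalized enrichment score of 1.54 with q = 0.18 in the authors' deposited table.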

How the data were processed

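Polyadenylated RNA of 6 samples of liver metastases went into a stranded library kit, per the labels' protocols. The submitters' processing notes name STAR 2.6.1 and HTSeq beside DESeq2 1.34.0, and build GRCm39, without saying what each did. The authors deposited raw counts per gene as whole numbers for 24167 genes, with a lowest row total of 2. The sources used here do not give the counting's strand setting or its handling of reads with several matches. The authors also deposited a table of log2 fold changes with p-values and q-values, and a table of gene set enrichment scores, whose column key names another contrast than the table itself.

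The members and lists were chosen with earlier results of these data known. Counts were tested with edgeR 4.0.16 in R 4.3.3 (TMM, filterByExpr, robust quasi-likelihood test, Benjamini-Hochberg adjustment over 15567 genes, all 6 libraries, group as the only term). Alternatives were DESeq2 1.42.0, limma 3.58.1 voom, other scalings and filters, a replicate block, a hepatocyte covariate and each library left out. The fits were tested on simulated data. P-values measure the spread between 3 libraries a group, which may be technical in part. The total per library bounds precision: 10 counts are under 1 CPM. Named members are 16 textbook genes, the 6 with the smallest p in each direction and the 5 with the highest CPM; of each other list, up to 3 by p (1 such gene is not reported here), with markers of airway cells added after their values were seen. Exon lengths and shared 50-base stretches come from GENCODE M21 transcripts on GRCm38, which held 50 of the 51 members, and upstream sequences from RefSeq on GRCm38.p6; as the builds differ, no gene coordinates of the count table are given.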

Additional observations from a re-analysis of the deposited data

How the results depend on the processing

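The depth of 15832837 to 19186615 counts left 5 members untested, and with 3 libraries a group single libraries decide many estimates. The number of members at an unadjusted p under 0.05 was 5 with library totals alone, 5 with DESeq2, 17 with the hepatocyte covariate and 9 in the 4 libraries left without shZdhhc17 replicate 1 and shSCR replicate 3 (chosen after seeing the data), and 2 to 6 with 1 library left out, against 3. Those were 10.9%, 9.80%, 37.0% and 19.6% of the members for the first 4 fits, against 12.5%, 8.21%, 8.44% and 14.3% of all genes in the same fits. With 1 library left out, the shares ran from 4.35% to 13% of the members and from 5.90% to 18.2% of all genes. Without shSCR replicate 1, 5 of the 6 were higher, and without shSCR replicate 3 all 6 were lower. The number past the adjusted threshold was 1 with DESeq2 (Cyp2c40, adjusted p = 0.0105) and 0 in the other alternatives. Library totals alone moved the median of all genes to -0.13 and that of the members to -0.04. The members' median was -0.578 with the hepatocyte covariate and -0.17 to 0.503 with 1 library left out. The same replicate numbers correlated at -0.0591, 0.315 and -0.0458, where all pairs of a shZdhhc17 and a shSCR library ran from -0.403 to 0.315. With 3 libraries a group these values cannot decide whether the numbers pair the samples. With a replicate block 4 members had an unadjusted p under 0.05 (8.70%, against 10.4% of all genes) and the median was 0.17. Of 25 named members, 11 kept their direction in all 16 alternatives. Signs turned as follows, and the cause was not tested. With the hepatocyte covariate the log2 fold change was -0.42 for Cyp2c39, -0.105 for Cyp2e1, -0.287 for Cyp3a13, -0.567 for Cyp2r1, -0.369 for Cyp2c70, -0.159 for Cyp2d22 and 0.13 for Cyp1b1. In the 4 libraries it was 0.217 for Cyp2a5, 0.207 for Cyp1b1 and 0.0667 for Cyp7b1. Cyp2a5, near 0, was at 0.0107 with DESeq2 size factors, 0.00565 without a filter and 0.0112 with DESeq2. Cyp2r1 was at -0.00541 with library totals alone and -0.0348 with limma voom, and Cyp2c29 at 0.00107 with the replicate block. With 1 library left out, the log2 fold changes ran over -0.497 to 0.467 for Cyp2c29, -1.44 to 0.459 for Cyp2a5, -0.495 to 0.205 for Cyp1b1, -1.15 to 0.554 for Cyp7a1, -0.233 to 0.515 for Cyp2r1, -0.633 to 0.178 for Cyp1a2, -0.942 to 0.0192 for Cyp8b1, -0.934 to 0.398 for Cyp3a11 and -0.0864 to 0.604 for Cyp2c70. The log2 ratio of the summed hepatocyte marker level, 0.558, ran over 0.311 to 0.813.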
